A study of Ovis aries with 20 samples.

Results

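Lysophosphatidic acid (LPA) receptors are cell surface receptors for LPA, a small signalling lipid. The family described here has 7 members among the 28524 genes measured: the receptor genes LPAR1, LPAR2, LPAR3, LPAR4, LPAR5 and LPAR6, and ENPP2, which encodes autotaxin. Autotaxin is a secreted enzyme that makes LPA from lysophosphatidylcholine outside cells. The family was taken up because of LPAR6, which was selected on its values in theca cells: it had the smallest p of any gene there for prenatal testosterone against control by DESeq2. The LPAR6 values of that contrast are therefore a description here and carry no test. The other members were added by gene name, and all 7 are in the table.

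The receptors fall into 2 structural groups. LPAR1, LPAR2 and LPAR3 belong to the endothelial differentiation gene (EDG) family, together with the receptors of sphingosine 1-phosphate. LPAR4, LPAR5 and LPAR6 are more closely related to the purinergic P2Y receptors. All couple to heterotrimeric G proteins, and several act on the cytoskeleton and on gene regulation by YAP and SRF. Autotaxin, LPA and its receptors are known from the ovary, where LPA is present in follicular fluid.

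Granulosa cells line the inside of the ovarian follicle and make estradiol, and theca cells surround them, make androgen and hold the blood vessels of the follicle wall. Both layers were taken from antral follicles of adult sheep (Ovis aries). The prenatal T animals (sheep 209, 210, 230, 276 and 315) were offspring of ewes that were injected into the muscle with 100 mg testosterone propionate (1.2 mg/kg), 2 times a week, between days 30 and 90 of pregnancy. The controls (sheep 139, 224, 244, 246 and 268) were offspring of ewes that received vehicle. All animals were given 2 injections of 10 mg prostaglandin F2 alpha 11 days apart, and their ovaries were removed at 21 months of age, 18 h after the second injection. The layers were cut out of 14 µm cryosections by laser, and the cells of several follicles of an animal were pooled, so each library is a mean over follicles and holds whatever else lay in the cut area. The comparisons use 5 prenatal T and 4 control granulosa libraries and 5 prenatal T and 5 control theca libraries, with 12.7 to 26.0 M reads each. The granulosa cells of control sheep 139 were not analysed here.

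Values are normalized counts, that is, reads of a gene scaled by the size factor of each library. They are not divided by gene length, so levels are compared between libraries and not between genes. Values of prenatal T animals are given in the order of sheep 209, 210, 230, 276 and 315. Control values follow the order of sheep 224, 244, 246 and 268, with sheep 139 before them in theca. LPAR6 lies inside the span of the retinoblastoma gene RB1, per the RefSeq sheep annotation, and LPAR2 overlaps the transcription factor gene PBX4. LPAR1, LPAR3 and ENPP2 overlap genes that have only LOC identifiers, and LPAR1 also a transfer RNA gene. The sources used here do not give whether reads were assigned by strand, so reads of overlapping genes could not be told apart, and RB1 values are given beside those of LPAR6.

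The libraries of prenatal T sheep 209 stood apart and lacked some of the defining markers of the layers on their labels. The summed level of the granulosa markers was 629 in its granulosa library, against 26119 to 127429 in the other 8 granulosa libraries. FSHR, AMH, CYP19 and CYP17A1, which define the follicular steroidogenic layers, were at 0 in both of its libraries. INSL3, a theca hormone, was at 1.27 in the theca library of sheep 209 and at 3546 to 18648 in the other 9 theca libraries. Other theca markers were present there: the 13 summed to 391345, against 608791 to 898511 in the other 9. DCN, at 22083, and PDGFRA, at 10971, were within the range of the other theca libraries, whereas PTCH1, at 1330, and TCF21, at 433, were below it. Epithelial markers (8 genes, including EPCAM and KRT8) summed to 74759 in the granulosa library of sheep 209, against 144 to 4018 in the other granulosa libraries. Immune markers (10 genes, including PTPRC) summed to 16373 in the granulosa library of sheep 209 and to 199 to 2465 in the others. Values without this animal are given beside the results that it moves.

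**Figure D1:**
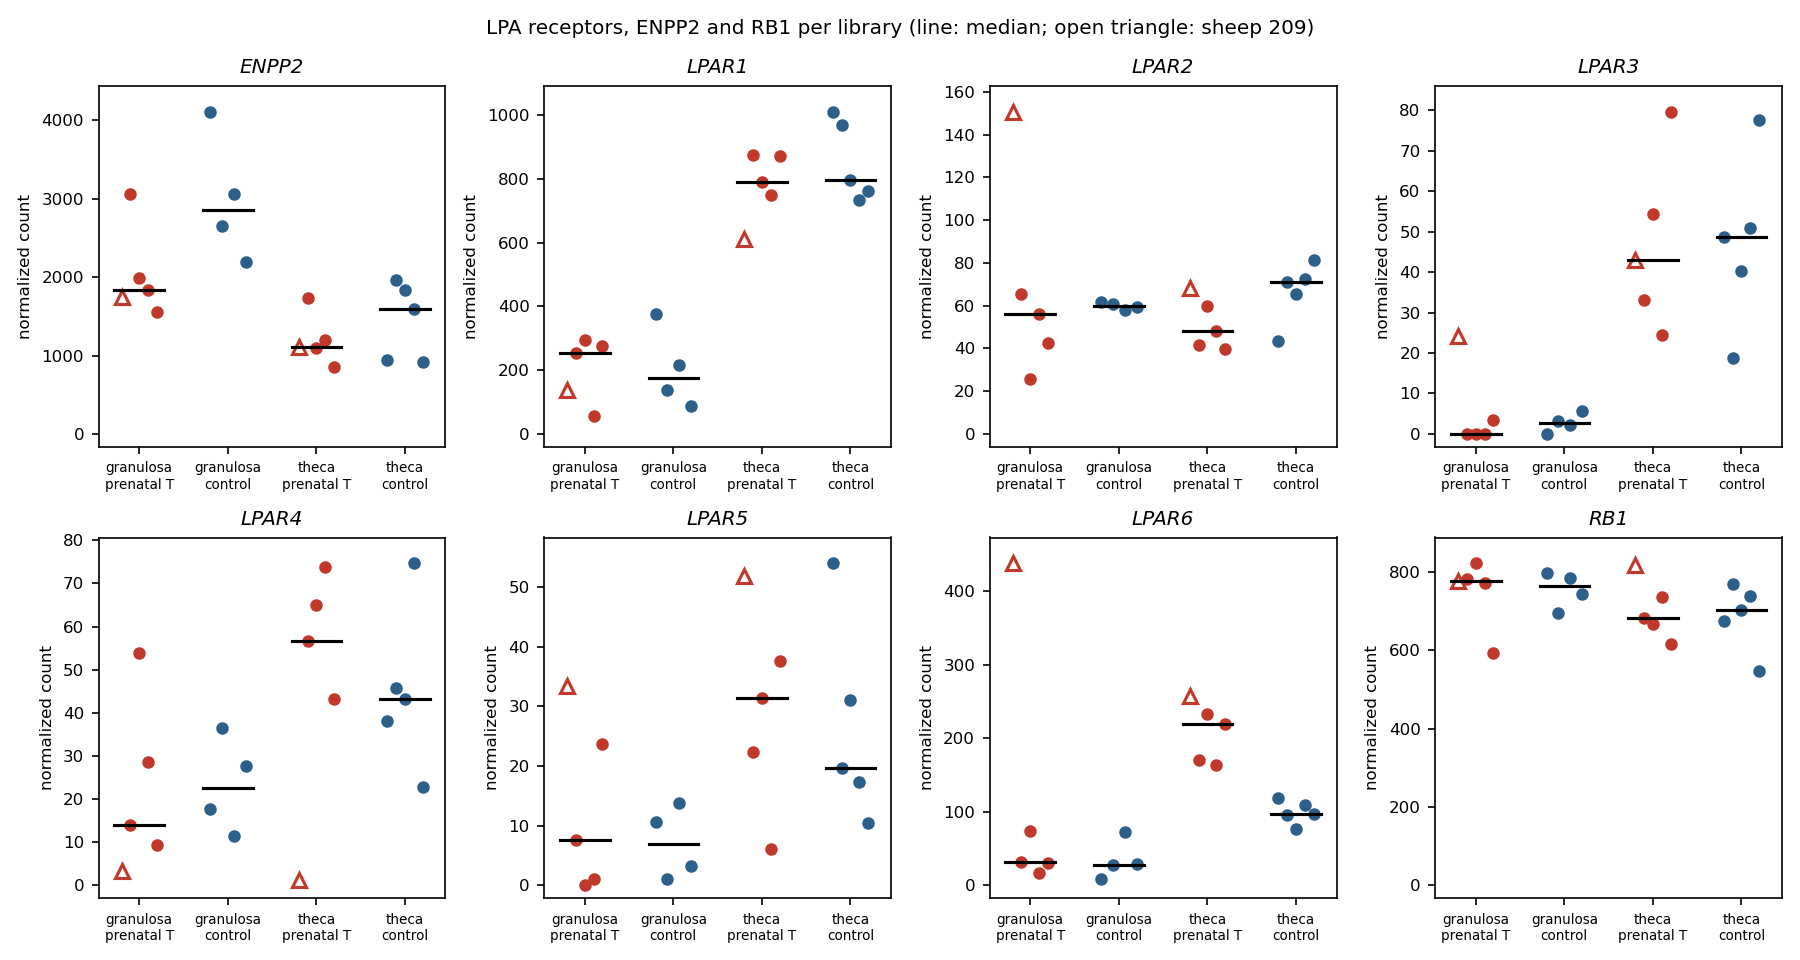
Normalized count of each family member and of RB1 in every library (y axis, starting at 0), by layer and treatment (x axis), with 5 prenatal T and 4 control granulosa libraries and 5 prenatal T and 5 control theca libraries. Each point is 1 animal, the line is the median of the group, and the open triangle is sheep 209; the LPAR6 points of the prenatal T theca libraries lie between 164 and 258, all above the control theca libraries at 77.3 to 119.5.

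Between the layers, the gene for the LPA-producing enzyme and the receptor genes LPAR1 and LPAR6 ran in opposite directions. ENPP2 was higher in granulosa than in theca cells, whereas LPAR1 and LPAR6 were lower in granulosa cells, and LPAR3 and LPAR5 had lower values there. The filter on low values asked for 10 or more in 5 or more libraries. LPAR3 and LPAR5 passed it only through their theca libraries, where they are high, so their layer values are a description with no test. The other 5 members passed in each layer, and of these 1 was called higher and 2 were called lower in granulosa cells by limma with the animal as a block, at an adjusted p under 0.05. The 2 were LPAR1 and LPAR6, and the LPAR6 test shares its theca libraries with the contrast that chose it. Calls between the layers were common: of the 14382 genes that passed in each layer, 30.6% were called higher and 25.2% lower. Without sheep 209, ENPP2 was still called higher, beside 33.9% of these genes, and 3 members were called lower, LPAR4 being added, beside 29.0% of these genes.

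ENPP2 had 1751, 3065, 1993, 1839 and 1551 normalized counts in granulosa and 1109.7, 1737, 1101, 1197 and 849.9 in theca cells of prenatal T animals. In controls ENPP2 had 4109, 2649, 3062 and 2196 normalized counts in granulosa cells, against 946, 1962, 1841, 1593 and 915 in theca cells. Granulosa cells were higher in 9 of the 9 animals with both layers, a direction that 15.8% of all genes tested shared. The granulosa level was 144 to 240% of the theca level of the same animal (median 181%). On the log2 scale of the normalized count plus 1, which all log2 changes below use, ENPP2 was higher by 0.86 ± 0.07 (SE; adjusted p = 7.86e-06, limma). Adding 1 understates changes of genes with low counts.

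LPAR1, the most widely expressed receptor of the family in mammals, was lower in granulosa cells of every animal. Its normalized counts were 138, 254, 294, 55.0 and 276 in granulosa and 611, 874, 790.2, 748 and 870.4 in theca cells of prenatal T animals. In controls they were 377, 137, 217 and 87.6 in granulosa and 1010.2, 969.6, 796, 734 and 762 in theca cells. Granulosa libraries had at most 377 and theca libraries at least 611, and how many of all genes have layers apart in this way was not counted. Theca cells were higher in 9 of 9 animals, a direction that 15.0% of all genes tested shared. The log2 change was -2.17 ± 0.25 (SE; adjusted p = 5.33e-05, limma), and -2.17 without sheep 209.

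LPAR3, a receptor known in mice for its part in embryo implantation, was at or near 0 in granulosa cells of all animals but sheep 209. It had 24.2, 0, 0, 0 and 3.55 normalized counts in granulosa and 43.0, 33.1, 54.4, 24.6 and 79.6 in theca cells of prenatal T animals. In controls it had 0, 3.31, 2.17 and 5.68 in granulosa and 48.7, 18.7, 40.2, 50.9 and 77.7 in theca cells. The 3 prenatal T granulosa libraries at 0 reads allow a level of up to 3.44, and the control at 0 up to 1.67 (3 reads, counting error only). The value of 24.2, from sheep 209, rests on 21 reads and was the only granulosa value within the theca range. The log2 change of LPAR3 was -3.94 ± 0.46 (SE), and -4.36 ± 0.29 without sheep 209, given with no test because LPAR3 passed the filter through its theca libraries only.

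LPAR5, a receptor of the P2Y-related group described in immune and nerve cells, also had the lower value in granulosa cells of every animal. Its normalized counts were 33.4, 7.54, 0, 1.15 and 23.7 in granulosa and 51.9, 22.4, 31.4, 6.14 and 37.5 in theca cells of prenatal T animals. In controls LPAR5 had 10.6, 1.10, 13.7 and 3.24 in granulosa and 53.9, 19.6, 31.1, 17.3 and 10.5 in theca cells. The ranges of the layers overlapped across animals although each animal had more in theca cells. The log2 change was -1.76 ± 0.51 (SE), and -1.92 without sheep 209, again with no test, since LPAR5 also passed the filter through theca libraries only.

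LPAR6, a receptor whose loss causes hair disorders in humans, was lower in granulosa cells of 8 of 9 animals. It had 438, 32.3, 74.5, 17.2 and 30.8 normalized counts in granulosa and 258, 171, 233, 164 and 219.6 in theca cells of prenatal T animals. In controls LPAR6 had 8.89, 27.6, 73.0 and 29.2 in granulosa and 119.5, 95.3, 77.3, 109 and 97.8 in theca cells. The exception was sheep 209, whose granulosa library, at 381 reads, held the highest LPAR6 value of all. Without sheep 209, LPAR6 was at 8.89 to 74.5 in the 8 granulosa libraries and at 77.3 to 233 in the 9 theca libraries. The share of all genes with layers apart in this way was not counted. The log2 change was -1.80 ± 0.40 (SE; adjusted p = 0.00338, limma), and -2.13 ± 0.27 without sheep 209 (adjusted p = 5.44e-05). This test shares its theca libraries with the contrast for which LPAR6 was chosen, so it is not free of that choice. The host gene RB1, at 592 to 822 in granulosa and 548 to 817 in theca libraries, had a log2 change of 0.11 ± 0.07 (adjusted p = 0.167, limma).

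LPAR4 and LPAR2 were not called between the layers. LPAR4, a P2Y-related receptor known for its part in blood vessel formation in mice, had 3.45, 14.0, 53.9, 28.7 and 9.47 normalized counts in granulosa and 1.27, 56.6, 64.9, 73.7 and 43.2 in theca cells of prenatal T animals. In controls LPAR4 had 17.8, 36.4, 11.6 and 27.6 in granulosa and 38.1, 45.8, 43.2, 74.7 and 22.7 in theca cells. Granulosa cells were lower in 7 of 9 animals, the exceptions being sheep 209 and control sheep 268. The log2 change of LPAR4 was -0.95 ± 0.39 (SE; adjusted p = 0.0579, limma). It was -1.19 ± 0.33 without sheep 209 (adjusted p = 0.00833, limma) and -1.16 without sheep 268 (adjusted p = 0.0417, limma). LPAR4 was also called with a pseudocount of 4 (-0.90, adjusted p = 0.0350, limma), by edgeR (-1.06, adjusted p = 0.0355) and by DESeq2 (-1.08, adjusted p = 0.00897), and over all alternatives its adjusted p ran from 0.00833 to 0.253. Of the genes that passed in each layer, edgeR called 23.8% lower and DESeq2 26.3%.

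LPAR2, the third EDG-type receptor, was the member most even between the layers. It had 151, 65.7, 25.5, 56.2 and 42.6 normalized counts in granulosa and 68.3, 41.6, 59.7, 48.1 and 39.8 in theca cells of prenatal T animals. In controls LPAR2 had 61.7, 60.7, 57.8 and 59.2 in granulosa and 43.4, 71.0, 65.3, 72.5 and 81.2 in theca cells. Granulosa cells were higher in 4 animals and theca cells in 5. The log2 change was -0.045 ± 0.22 (SE; 95% interval -0.53 to 0.44; adjusted p = 0.876, limma).

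**Figure D2:**
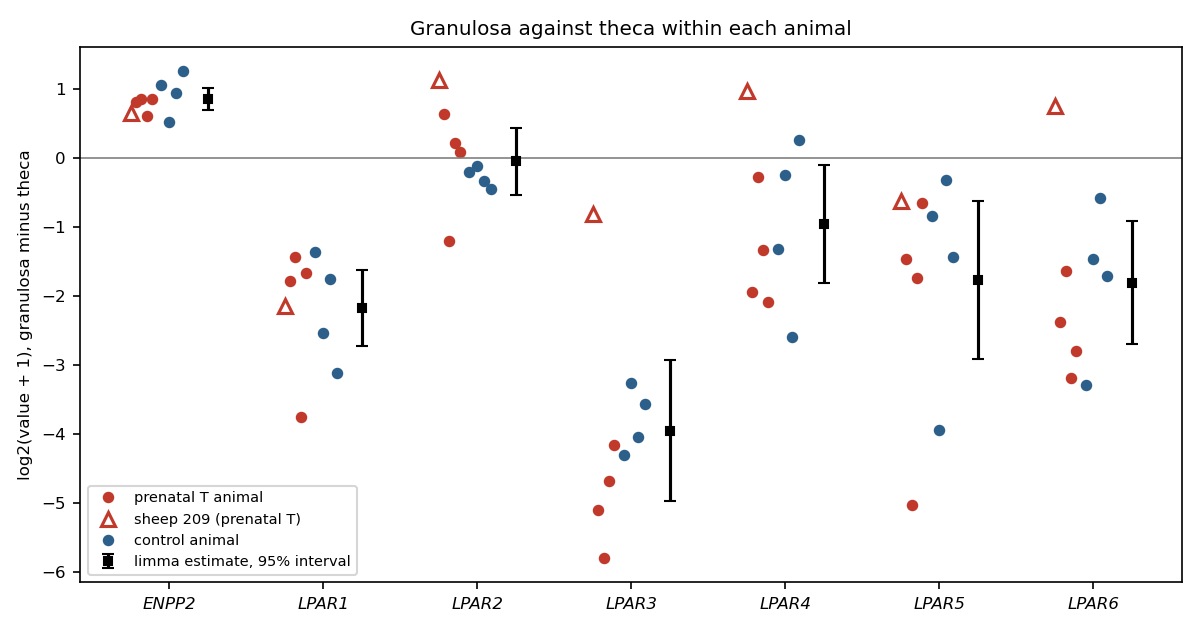
Difference between granulosa and theca cells of the same animal (y axis, log2 of the normalized count plus 1, granulosa minus theca) for each family member (x axis), with 5 prenatal T animals, 4 controls and the limma estimate with its 95% interval (black). ENPP2 lies above 0 and LPAR1, LPAR3 and LPAR5 lie below 0 in 9 of 9 animals; sheep 209 (open triangle) is the only animal with LPAR6 above 0, at 0.76.

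Markers of other cell types also differed between the layers. The summed level of the 13 theca markers in granulosa libraries was 3.22 to 11.5% of that in theca libraries of the same animal. For the 14 endothelial markers (including PECAM1 and CDH5) it was 17.6 to 37.3%, and for the 9 smooth muscle and pericyte markers (including ACTA2 and MYH11) 6.11 to 41.8%. On the same measure LPAR1 stood at 7.35 to 38.9% and, without sheep 209, LPAR3 at 0 to 8.24% and LPAR6 at 9.33 to 66.8%. Whether the receptor reads came from theca cells or from vessels within the theca was not tested. In such bulk samples, fewer cells of a type and less RNA per cell cannot be told apart.

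Prenatal T against control in theca cells asks what differs in this layer of adult animals whose mothers had received testosterone. LPAR6 was the member with the highest log2 change in this contrast, and it was chosen for its DESeq2 p here. Its values below, including the share of genes with the same order and the range with animals left out, are therefore a description. The 5 prenatal T theca libraries had 258, 171, 233, 164 and 219.6 normalized counts (204, 160, 223, 160 and 193 reads), and the 5 control theca libraries had 119.5, 95.3, 77.3, 109 and 97.8 (113, 102, 77, 101 and 112 reads). Every prenatal T library lay above every control library, an order that 1.28% of the 15492 genes tested shared, and 2.50% without sheep 209. The mean was 209 ± 40.7 in prenatal T and 99.8 ± 15.9 in control theca cells (SD, n = 5 each), a ratio of 2.09, or 1.97 without sheep 209.

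The log2 change of LPAR6 in theca cells was 1.05 ± 0.20 (SE), and 0.96 to 1.13 when each animal was left out in turn. The count of calls depended on the tool. With limma 0 of 15492 genes were called (0%), with 1192 at an unadjusted p under 0.05, and with edgeR 0 (0%), with 1561 at that level. DESeq2 called 9 genes (0.0726% of 12389 with an adjusted p). LPAR6 was among them because it was chosen as the gene with the smallest DESeq2 p here, so its call is not a test. No other family member was among them.

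RB1, whose reads could overlap with those of LPAR6, had 817, 682, 668, 735 and 617 normalized counts in prenatal T theca cells and 674, 769, 703, 738 and 548 in control theca cells. The RB1 groups overlapped, with a log2 change of 0.04 ± 0.13 (adjusted p = 0.934, limma). Marker sums of the other cell types overlapped as well. Endothelial markers summed to 14262 to 26319 in prenatal T and 15147 to 23324 in control theca libraries, with the highest of all in sheep 209. Smooth muscle and pericyte markers summed to 147950 to 276827 in prenatal T and 107830 to 222857 in control theca libraries. Immune markers, without sheep 209, summed to 812 to 2669 in prenatal T and 1664 to 2795 in control theca libraries. Theca markers, without sheep 209, summed to 608791 to 723558 in prenatal T and 661834 to 898511 in control theca libraries. Their part in the LPAR6 difference was not tested, and the difference was present without sheep 209.

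None of the other 6 members was called in theca cells by limma. ENPP2 averaged 1199 ± 328 in prenatal T and 1451 ± 494 in control theca cells (SD, n = 5 each), and the groups overlapped widely. Its log2 change was -0.24 ± 0.26 (SE; adjusted p = 0.788, limma). LPAR1 averaged 779 ± 108 in prenatal T and 854 ± 126 in control theca cells (SD, n = 5 each), with a log2 change of -0.13 ± 0.14 (adjusted p = 0.783, limma). LPAR1 also had the narrowest interval of the receptors in theca cells, from -0.44 to 0.18. LPAR2 averaged 51.5 ± 12.2 in prenatal T and 66.7 ± 14.2 in control theca cells (SD, n = 5 each), a log2 change of -0.37 ± 0.26 (adjusted p = 0.702, limma). LPAR3 averaged 46.9 ± 21.4 in prenatal T and 47.2 ± 21.3 in control theca cells (SD, n = 5 each), with a log2 change of 0.01 ± 0.43 (adjusted p = 0.995, limma).

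LPAR4 in theca cells depended on 1 animal. The theca library of sheep 209 had 1.27 normalized counts, against 22.7 to 74.7 in the other 9 theca libraries. With it the log2 change of LPAR4 was -0.47 ± 0.88 (adjusted p = 0.877, limma), and without it 0.47 ± 0.33 (adjusted p = 0.572, limma). LPAR5 averaged 29.9 ± 17.1 in prenatal T and 26.5 ± 17.1 in control theca cells (SD, n = 5 each). Its log2 change was 0.11 ± 0.60, and -0.16 ± 0.58 without sheep 209 (adjusted p = 0.966 and 0.932, limma). The 95% interval of the LPAR5 change was -1.21 to 1.42 and that of the LPAR3 change -0.93 to 0.95. Changes within these bounds are compatible with the values of these animals.

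**Figure D3:**
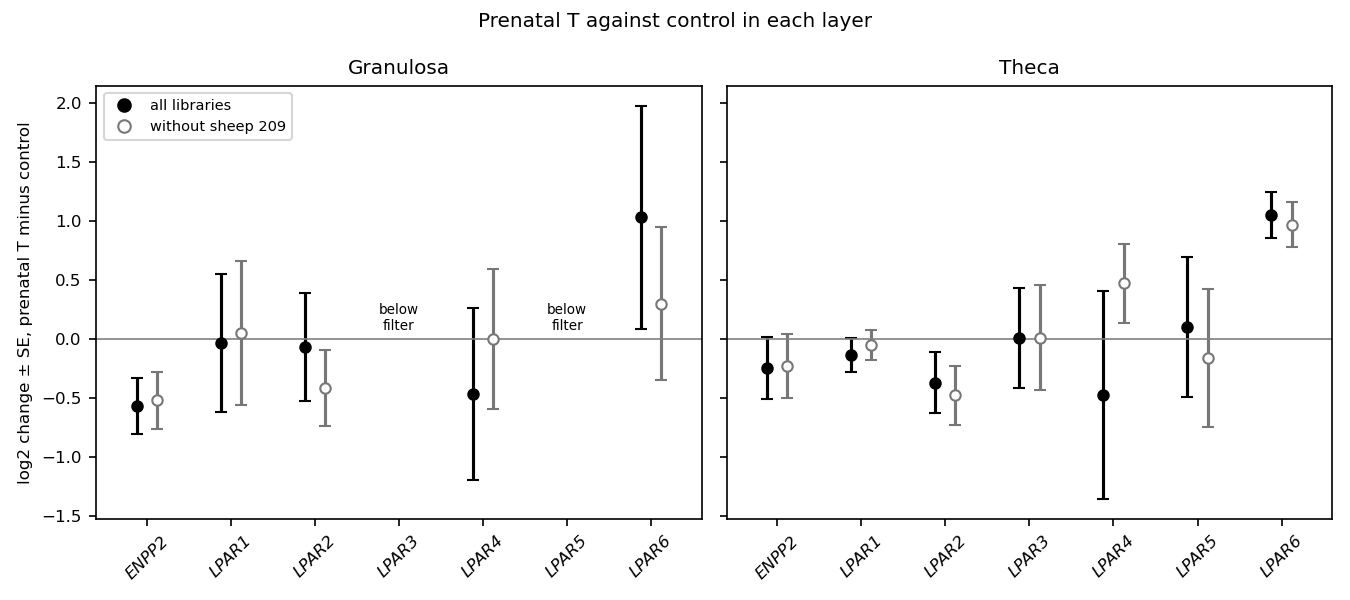
Log2 change of prenatal T minus control (y axis, with the SE from limma) for each member (x axis) in granulosa cells (5 prenatal T, 4 control libraries) and theca cells (5 and 5), with all libraries (filled) and without sheep 209 (open). LPAR6 stands at 1.05 in theca cells with all libraries and 0.97 without sheep 209, whereas in granulosa cells it is 1.03 with all libraries and 0.30 without sheep 209.

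In granulosa cells no member was called for prenatal T against control. LPAR3 and LPAR5 fell below the filter, so 5 of 7 members were tested. With limma 0 of 14724 genes were called (0%), with 622 at an unadjusted p under 0.05, and with edgeR 0 (835 at that level). DESeq2 called 16 genes (0.115% of 13929), none of them a member. With libraries of both layers and the animal as a block, 1 gene was called by limma, FGD5 (log2 change -1.69, adjusted p = 0.0160), an exchange factor of endothelial cells that is named here after its value was seen.

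ENPP2 was the member with the smallest unadjusted p in granulosa cells. The 5 prenatal T granulosa libraries averaged 2040.0 ± 595 and the 4 control granulosa libraries 3004 ± 817 normalized counts (SD). The prenatal T libraries, at 1551 to 3065, overlapped the control range of 2196 to 4109. The log2 change was -0.56 ± 0.24 (SE; 95% interval -1.09 to -0.03), with an unadjusted p of 0.0408 and an adjusted p of 0.875 by limma, so it failed the correction over all genes. Without sheep 209 it was -0.52 ± 0.24, with an unadjusted p of 0.0603 (adjusted p = 0.734, limma). When each animal was left out in turn the log2 change was -0.72 to -0.40, and over all alternatives its adjusted p was 0.630 to 0.980. Smooth muscle and pericyte markers, summed, were 16907 to 28484 in prenatal T and 29065 to 45098 in control granulosa libraries. Most of this sum was MYH11, a smooth muscle myosin, at 4637 to 23419 in prenatal T and 23635 to 37684 in control granulosa libraries. The share of all genes tested with this order of groups is not given here, so the order is a description. The groups overlapped for each of the other 8 genes. The median log2 change over the 9 was -0.03, and -0.35 without sheep 209. Theca markers summed to 21666 to 43085 in prenatal T and 35781 to 85917 in control granulosa libraries. Their median log2 change was -0.97, and -0.50 without sheep 209. By limma 6 of these 13 genes had an unadjusted p under 0.05, beside 622 of 14724 genes tested. Without sheep 209 it was 8, beside 1018, and 0 were called either way. The part of both marker groups in the ENPP2 values was not tested.

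LPAR6 averaged 119 ± 180.0 in the 5 prenatal T granulosa libraries and 34.7 ± 27.2 in the 4 control granulosa libraries (SD). Sheep 209 gave nearly all of this difference: its library had 438 normalized counts, and of the other 4 prenatal T libraries only sheep 230, at 74.5, lay outside the control range of 8.89 to 73.0. The log2 change was 1.03 ± 0.95 (SE; 95% interval -1.10 to 3.17; adjusted p = 0.875, limma), and 0.30 ± 0.65 without sheep 209 (adjusted p = 0.921, limma). RB1 averaged 749 ± 89.9 in the prenatal T and 755 ± 46.0 in the control granulosa libraries (SD).

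LPAR1 in granulosa cells averaged 203 ± 103 in the 5 prenatal T and 205 ± 127 in the 4 control libraries (SD), with a log2 change of -0.03 ± 0.58 (adjusted p = 0.991, limma). LPAR2 averaged 68.1 ± 48.6 in the prenatal T and 59.8 ± 1.70 in the control granulosa libraries (SD). The 4 controls lay between 57.8 and 61.7, and the 5 prenatal T libraries lay on both sides of them, from 25.5 to 151. The log2 change of LPAR2 was -0.06 ± 0.46, and -0.41 ± 0.32 without sheep 209 (adjusted p = 0.974 and 0.783, limma). LPAR4 averaged 21.9 ± 20.2 in the prenatal T and 23.3 ± 10.9 in the control granulosa libraries (SD), with a log2 change of -0.46 ± 0.73, and 0.0049 ± 0.59 without sheep 209 (adjusted p = 0.896 and 0.998, limma).

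Whether the prenatal T effect differed between the layers was tested as the difference of the effects, granulosa minus theca, with the animal as a block. With limma 0 of 16269 genes were called (0%), with 758 at an unadjusted p under 0.05, and with edgeR 0 (794 at that level). DESeq2 called 16 (0.0983%), none of them a member. For LPAR6, whose theca effect chose it, the difference is a description: -0.09 ± 0.80 with all libraries and -0.74 ± 0.55 without sheep 209 (SE, log2). For ENPP2 the difference was -0.19 ± 0.14 (95% interval -0.51 to 0.14; adjusted p = 0.960, limma). The differences of LPAR1, LPAR2, LPAR3, LPAR4 and LPAR5 were between -0.32 and 0.45, each smaller than 1.5 times its SE. The value for LPAR3 was -1.14 ± 0.57 without sheep 209. LPAR3 and LPAR5 passed the filter of this comparison through theca libraries only, so their differences are a description with no test.

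Genes that make and break down LPA and genes that act below its receptors were followed in the same comparisons. Between the layers, 17 of 19 genes of LPA production and breakdown were tested, of which PLA1A and AGPAT4 passed the filter through theca libraries only. Of the other 15, 6 were called higher and 6 lower in granulosa cells, beside 30.6% and 25.2% of the genes that passed in each layer. Without sheep 209 it was 6 higher and 7 lower, beside 33.9% and 29.0%. PLPP1, a phosphatase that degrades LPA outside cells, had a log2 change of -0.999 ± 0.08 (adjusted p = 4.09e-06, limma). PLA2G4A, a phospholipase, had -1.01 ± 0.14 (adjusted p = 0.000170, limma). AGPAT4, an acyltransferase that uses LPA within cells, had -3.07 ± 0.36, given with no test because of the filter. AGPAT3, another acyltransferase, was higher in granulosa cells by 0.45 ± 0.07 (adjusted p = 0.000474, limma).

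All 18 YAP and SRF effectors and targets were tested, of which ANKRD1 passed the filter through granulosa libraries only. Of the other 17, 3 were called higher and 11 lower in granulosa cells, beside the same 30.6% and 25.2%. Without sheep 209, 4 were called higher and 11 lower, beside 33.9% and 29.0%. WWTR1, the YAP relative TAZ, had a log2 change of -1.48 ± 0.07, and YAP1 -0.47 ± 0.05 (adjusted p = 3.04e-07 and 2.50e-05, limma). TEAD3 and TEAD4, DNA-binding partners of YAP, had -1.61 ± 0.15 and -2.29 ± 0.25 (adjusted p = 1.46e-05 and 4.56e-05, limma). The YAP target CCN2 had 0.01 ± 0.58, and 0.53 ± 0.32 without sheep 209 (adjusted p = 0.990 and 0.176, limma), whereas the target CCN1 was lower, at -1.45 ± 0.43 (adjusted p = 0.0149, limma).

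In the 3 comparisons that involve prenatal T, limma, edgeR and DESeq2 each called 0 genes of each of these lists. At an unadjusted p under 0.05, limma had at most 1 gene of a list, or 2 without sheep 209, and edgeR and DESeq2 at most 2. For prenatal T against control in theca cells the median log2 changes were -0.10 for LPA production and breakdown and -0.01 for YAP and SRF effectors, against 0.00 over all genes tested. Without sheep 209 they were -0.04 and -0.13, against -0.01. In granulosa cells they were 0.13 and -0.04 in the same order of lists, against -0.01 over all genes, and 0.17 and -0.11 without sheep 209.

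**Figure D4:**
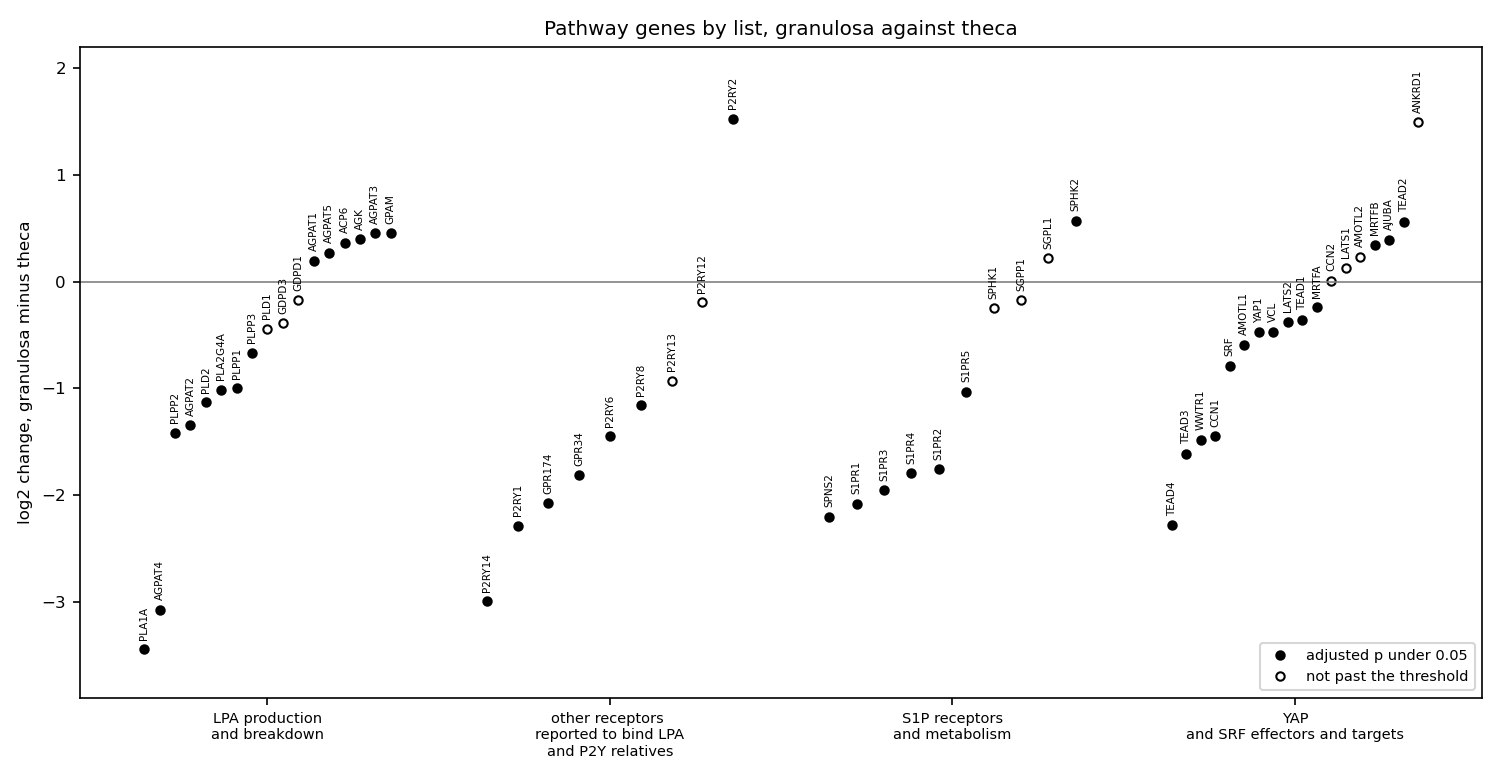
Log2 change of granulosa minus theca (y axis, limma with the animal as a block, 19 libraries of 10 animals) for each tested gene of 4 lists around LPA signalling (x axis); filled points have an adjusted p under 0.05 and open points do not. Genes that passed the filter through 1 layer only, such as AGPAT4 and PLA1A at the low end of LPA production and breakdown, are drawn too and are not a test of the layers; the other 15 genes of that list lie between -1.42 and 0.45.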

How the data were processed

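RNA was measured in 19 libraries of granulosa or theca cells of 10 sheep. Of 20 samples listed, 1 was not analysed here, and every column of values belonged to a sample. The values deposited by the authors are a signal for each gene: its read count over the library's size factor. The tools were, per the submitters' processing notes, STAR 2.6.0c, featureCounts (Subread 1.6.1), DESeq2, FastQC 0.11.5 and MultiQC 0.9. A genome build for the alignment was not given in the sources. Coordinates were used only to find overlapping genes, in the annotation named next. Gene names and overlaps came from RefSeq's sheep genes (ARS-UI_Ramb_v3.0), and all 7 members were matched by symbol. Within a library, 100% of values were multiples of the value of 1 read, to a relative tolerance of 1e-06, which gave back the read counts. In the theca library of control sheep 244 the step is 1.004, so close to 1 that this check is weaker there. Limits for 0 reads use 3 reads and hold counting error only.

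Genes that reached 10 in 5 or more libraries of a comparison were tested on log2 of the value plus 1 with limma 3.58.1 (R 4.3.3) and a mean-variance trend, two-sided, with Benjamini-Hochberg adjustment over all genes tested and a threshold of 0.05. Comparisons within a layer had no covariate. The comparison of layers and the difference of effects had the animal as a block. The labels tie both layers to an animal, and deviations from group means of an animal's layers gave r = 0.42 to 0.80 (over genes, which are not independent replicates), with the own layer best in 9 of 9 animals. Pairs of libraries within a group were checked for repeats, of which there were none (over 36 pairs the lowest chi-square per degree of freedom was 26.1). Alternatives were pseudocounts of 0.5 and 4, no filter, TMM scaling, edgeR 4.0.16 (quasi-likelihood) and DESeq2 1.42.0 on recovered reads, an estimated correlation of the layers of an animal within layers, no animal block, and leaving out each animal. The fits were tested on simulated data with known changes.

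The members, the pathway lists and the marker lists were chosen with earlier results of these data known. Named were all 7 members, RB1, and of each pathway list up to 4 genes of smallest p past the threshold. CCN1, CCN2, SPHK2, GPR34, MYH11 and genes named for the filter alone were named after their values were seen. For LPAR6 and ENPP2, the 5 genes with the highest Pearson r in each layer without sheep 209 were also named. The results of 1 further pathway list are not reported here.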

Additional observations from a re-analysis of the deposited data

Results flagged for a closer look

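In 2 of 28 groups of a family member, 1 library stood apart from the others by Dixon's test for a single extreme value, and both times it was the granulosa library of prenatal T sheep 209. Chance alone sets apart about 1 in 20 such groups. LPAR6 was at 438 normalized counts there, against 17.2 to 74.5 in the other 4 prenatal T granulosa libraries. LPAR3 was at 24.2 normalized counts there, on 21 reads, against 0 to 3.55 in the other 4. The same library had granulosa markers summing to 629, epithelial markers to 74759 and immune markers to 16373, all outside the ranges of the other 8 granulosa libraries. Their part in the LPAR6 and LPAR3 values was not tested.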

How the results depend on the processing

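Over 26 results of single members and 434 alternatives, 380 kept their direction and their side of the threshold, 0 lost a call, 6 gained one and 48 changed sign. All sign changes were in results that were not called, and 14 of the 26 results had none. The 26 include the layer results and the differences of effects of LPAR3 and LPAR5. They also include the theca contrast and the difference of effects of LPAR6. These carry no test, so the tally is a description. Of the 6 gained calls, 5 were of LPAR4 between the layers and 1 was of LPAR6 in the theca contrast that chose it. The layer calls of ENPP2, LPAR1 and LPAR6 were present in each alternative, including the fit with no replicate block. Counts of calls for prenatal T were 0 except with DESeq2, which called 16 genes in granulosa, 9 in theca cells and 16 for the difference between layers, and with the replicate block, which called 1 in granulosa cells. The block changed no call of a member. Between layers 5729 genes were called with no replicate block, against 9124 with it and 8045 to 10231 with each animal left out. With edgeR and DESeq2, log2 changes in granulosa cells for prenatal T were 0.0087 and 0.0030 for LPAR1 and 0.20 and 0.21 for LPAR2, which was 0.029 with the replicate block. In theca cells LPAR3 was -0.020 with TMM and -0.021 with edgeR, and LPAR4 was 0.098 with edgeR. For the difference of effects LPAR3 was 0.0072 with a pseudocount of 4 and 0.19 with edgeR. LPAR4 was -0.034 with a pseudocount of 4, -0.24 with edgeR and -0.19 with DESeq2. LPAR5 was 0.037 with no replicate block, as was LPAR2 between layers at 0.027. With each animal left out, ranges that crossed 0 in granulosa cells were -0.36 to 0.38 for LPAR1, -0.41 to 0.22 for LPAR2 and -0.90 to 0.0049 for LPAR4. In theca cells they were -0.28 to 0.22 for LPAR3, -0.79 to 0.47 for LPAR4 and -0.16 to 0.57 for LPAR5. For the difference of effects they were -0.27 to 0.44 for LPAR1, -1.14 to 0.11 for LPAR3, -0.50 to 0.45 for LPAR4, -1.03 to 0.52 for LPAR5 and -0.74 to 0.31 for LPAR6, and between layers -0.16 to 0.13 for LPAR2. The cause was not tested. Within a layer, the p-values measure the spread between these animals, with 4 or 5 per group. With the animal as a block, they measure how layer differences vary between the 9 animals that have both layers.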

Other observations

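The lipid sphingosine 1-phosphate acts through receptors related to LPAR1, LPAR2 and LPAR3. Of 10 genes for its receptors and metabolism, all were tested, and S1PR4 passed the filter through theca libraries only. Of the other 9, 1 was called higher and 5 lower in granulosa than in theca cells, with and without sheep 209. Of all genes that passed in each layer, 30.6% and 25.2% were called, or 33.9% and 29.0% without sheep 209. The receptors S1PR3, S1PR2 and S1PR1 had log2 changes of -1.96 ± 0.21, -1.76 ± 0.20 and -2.08 ± 0.24 (adjusted p = 4.09e-05, 4.53e-05 and 6.24e-05, limma). The exporter SPNS2 had -2.21 ± 0.28 (adjusted p = 0.000105, limma). The kinase SPHK2, which makes sphingosine 1-phosphate, was the gene called higher, at 0.57 ± 0.08 (adjusted p = 0.000189, limma). Of 13 P2Y relatives and other receptors reported to bind LPA, 12 were in the table and 9 were tested. P2RY1, P2RY13 and P2RY14 passed the filter in each layer, and of these 0 were called higher and 2 lower, beside 30.6% and 25.2%. Without sheep 209 it was 0 higher and 3 lower, beside 33.9% and 29.0%. P2RY14, a receptor for UDP-sugars, had -2.996 ± 0.33, and P2RY1, a receptor for ADP, -2.29 ± 0.29 (adjusted p = 4.38e-05 and 0.000102, limma). P2RY6, a receptor for UDP, had -1.45 ± 0.31, and GPR174 -2.08 ± 0.50. These and GPR34 passed the filter through theca libraries only, so their layer values carry no test. In the 3 comparisons that involve prenatal T, limma, edgeR and DESeq2 called 0 genes of either list, with 0 at an unadjusted p under 0.05 by limma, at most 2 by edgeR and at most 1 by DESeq2. Without sheep 209, limma also called 0. P2RY1 (log2 -1.20) and P2RY14 (-0.76) then had an unadjusted p under 0.05 for the difference of effects (adjusted p = 0.540 each, limma). At that level were 1334 of 16269 genes. GPR34 had a log2 difference of -2.40, given with no test because of the filter. SPHK2 had log2 changes of -0.30 in granulosa and -0.35 in theca cells for prenatal T without sheep 209. Its unadjusted p were 0.0452 and 0.0464 and its adjusted p 0.719 and 0.413 (limma). At an unadjusted p under 0.05 were 1018 of 14724 genes in granulosa and 1859 of 15492 in theca cells. The median log2 changes in theca cells were 0.12 for the sphingosine 1-phosphate genes, or -0.10 without sheep 209, and 0.70 for the 6 tested P2Y relatives, or 0.37 without sheep 209.

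Genes whose levels were most like those of LPAR6 and ENPP2 are given by Pearson r of log2 values within a layer, without sheep 209. Libraries of a layer share the treatment groups and the size factors, and the genes were picked as the highest of all, so r is a description. Over 9 theca libraries LPAR6 was most like ARMCX3 (r = 0.97), KRR1 (r = 0.96), MRPL1 (r = 0.96), CRIPT (r = 0.96) and VMA21 (r = 0.96). The same genes had r of 0.05, 0.52, 0.45, 0.61 and 0.46 with LPAR6 over 8 granulosa libraries. Over 8 granulosa libraries LPAR6 was most like KRCC1 (r = 0.95), HDAC8 (r = 0.94), VRK2 (r = 0.93), SCARA5 (r = 0.92) and ADAMTS9 (r = 0.92). With sheep 209 added, HDAC8 had r = -0.19. ENPP2 was most like PARD6B (r = 0.97), NGLY1 (r = 0.95), BCL11A (r = 0.95), DACH1 (r = 0.94) and UIMC1 (r = 0.92) in theca cells and PPM1L (r = 0.97), PPP2R5B (r = 0.96), PCGF3 (r = 0.96), GAB2 (r = 0.95) and OTUD1 (r = 0.95) in granulosa cells. PARD6B, a cell polarity gene, was also close to ENPP2 in the other layer, at r = 0.94 over 8 granulosa libraries.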
